A study of Mus musculus with 8 samples.

Results

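Follistatin and the activin system were followed through 9 genes: the follistatin family members Fst, Fstl1 and Fstl3, the activin beta chain genes Inhba and Inhbb, and the receptor genes Acvr1, Acvr1b, Acvr2a and Acvr2b. Members were taken as every array probe that carried 1 of these gene symbols, which gave 7 probes for 7 genes among 25697 probes carrying 18120 symbols. Of the 7 probes, 6 were detected on at least 1 array and 5 on all 8. No probe carried the symbol Fstl3, which was not analysed here, and Acvr2a was found only under its older symbol, Acvr2, so its probe stands beside the members and is not counted with them. STHdh cells are progenitors from the striatum of mouse embryos, conditionally immortalized, with wild-type huntingtin, and form a single cell line. They were transfected with the plasmid pcDNA3.1 carrying mouse Bcl11b cDNA (beta isoform, 4 arrays) or with empty pcDNA3.1 (4 arrays, whose cells are labelled wild-type), and RNA was collected 2 days later. The study described the arrays as separate sets of transfected cells. The comparison asks how the activin system of these cells differed when Bcl11b, a zinc finger transcription factor of striatal neurons, was added.

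Activins are secreted dimers of inhibin beta chains and belong to the TGF-beta family. They bind a type II receptor serine/threonine kinase (encoded by Acvr2a or Acvr2b), which recruits and phosphorylates a type I receptor, chiefly the product of Acvr1b for activin, and the type I receptor then phosphorylates Smad2 and Smad3, which enter the nucleus with Smad4. Follistatin wraps around activin outside the cell and keeps it from its receptors, and it also binds myostatin and some bone morphogenetic proteins. In the nervous system activin A is known for effects on neuronal survival and differentiation.

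The Fst transcript is identified here by the primers that the study designed for its quantitative PCR, each of 20 bases, shown because Fst was the member with the largest difference on the arrays. They are written 5′ to 3′ without capitals, since no part was singled out.
Fst forward primer: cttgctgggcagatccattg
Fst reverse primer: cagcgacctctgccaacctt

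Promoter windows of 300 bases around the gene start were found in the RefSeq table (mouse build GRCm38.p6) for 8 of the 9 genes, all but Fst. The windows of Acvr2b, whose signal was lower on the Bcl11b arrays, and of Inhba, whose groups overlapped, are shown because they encode a receptor that passed the looser test below and the chain of activin A, the main ligand that follistatin binds. Capitals mark the GC box, GGGCGG, on either strand. Acvr2b lies on the plus strand at chr9:119401928-119402227 and its window held 3 GC boxes. Inhba lies on the plus strand at chr13:16011601-16011900 and its window held 0.
Acvr2b promoter: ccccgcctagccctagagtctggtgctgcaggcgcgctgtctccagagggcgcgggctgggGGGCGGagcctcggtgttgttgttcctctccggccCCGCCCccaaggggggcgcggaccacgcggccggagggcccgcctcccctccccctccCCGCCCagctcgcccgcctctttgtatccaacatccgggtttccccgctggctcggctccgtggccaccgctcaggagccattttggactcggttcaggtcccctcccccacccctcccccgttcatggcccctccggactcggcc
Inhba promoter: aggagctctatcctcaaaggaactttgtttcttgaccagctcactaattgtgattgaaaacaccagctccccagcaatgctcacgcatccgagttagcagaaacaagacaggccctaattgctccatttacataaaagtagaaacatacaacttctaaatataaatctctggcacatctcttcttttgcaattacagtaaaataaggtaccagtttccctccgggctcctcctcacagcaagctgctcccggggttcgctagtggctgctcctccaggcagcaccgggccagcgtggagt

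The 8 windows held 0 (Inhba) to 6 (Acvr1) GC boxes, and at least 1 was found in 7 of them, against 35.7% of 32851 promoter windows of the same length. Of the 6 hexamers that the study linked to Bcl11b-bound regions, searched on both strands, GGATCA was present in the window of Inhbb alone (9.24% of all windows) and AGTGTG in that of Fstl3 alone (17.1%). The others were in none of the 8. Of all windows 16.8% held ACCACA, while TGCTTG was found in 16.4%, and 15.4% held AGTGCT. The last hexamer, AGAGTG, was found in 16.4%. CAGACA, a Smad-binding letter string, was in the window of Fstl3 alone (21% of all windows), and TGACGTCA, the full cyclic AMP response element, was in none of the 8 (1.79%). These are matches of letters and not measured binding.

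Each array gave 1 deposited signal per probe, the background-subtracted mean over its beads, and a detection p-value against negative control beads, with detection taken here as a p-value under 0.01. After quantile normalization, values under 1 were raised to 1, and log2 values were compared with limma. Median deposited signals were 31.6 to 53.9 on the pcDNA3.1 arrays and 20.1 to 30.2 on the Bcl11b arrays, so that the scaling of the arrays bears on every difference below. The level of the transfected gene could not be read from the arrays, since none detected its probe (ILMN_2611022). The study measured its mRNA by quantitative PCR in duplicate sets of transfected cells. Neural progenitor markers were present, with Nes, Vim, Sox2 and Notch1 detected out of 5 genes. Of 7 matched medium spiny neuron markers Foxp1 was the only 1 detected, and Ppp1r1b, Drd1a, Drd2, Adora2a and Tac1 were not. By PCR the study found Ppp1r1b and Bcl11b, among other striatal transcripts, in these cells, so a lack of detection on the arrays does not show absence. In these bulk samples fewer cells of a type and less RNA per cell cannot be told apart.

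Fst, which encodes follistatin, was higher on all 4 Bcl11b arrays than on any pcDNA3.1 array. The log2 normalized signal of its probe (ILMN_1228958) was 8.40, 8.74, 8.07 and 8.28 on pcDNA3.1 arrays 1 to 4, and 10.01, 9.85, 10.17 and 9.88 on Bcl11b arrays 1 to 4. The groups were separated by more than the range of either, and the Bcl11b arrays lay closer together (SD 0.14) than the pcDNA3.1 arrays (SD 0.28). The mean rose from 8.37 to 9.98 (n = 4 each), a log2 difference of 1.60 (3.04-fold, SE 0.15, 95% interval 1.24 to 1.97), with limma's adjusted p = 0.0208 over all 25697 probes. Over all probes 0.981% passed the adjusted threshold of 0.10, and of the 11755 probes detected on at least 1 array 0.468% passed it as higher in Bcl11b cells. The separation was already present before any scaling: deposited signals were 326 to 487 on the pcDNA3.1 arrays and 651 to 857 on the Bcl11b arrays. Without normalization between arrays, however, the log2 difference was 0.90 and limma's adjusted p was 0.125, short of the threshold, while the median of all probes stood at -0.49.

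**Figure D1:**
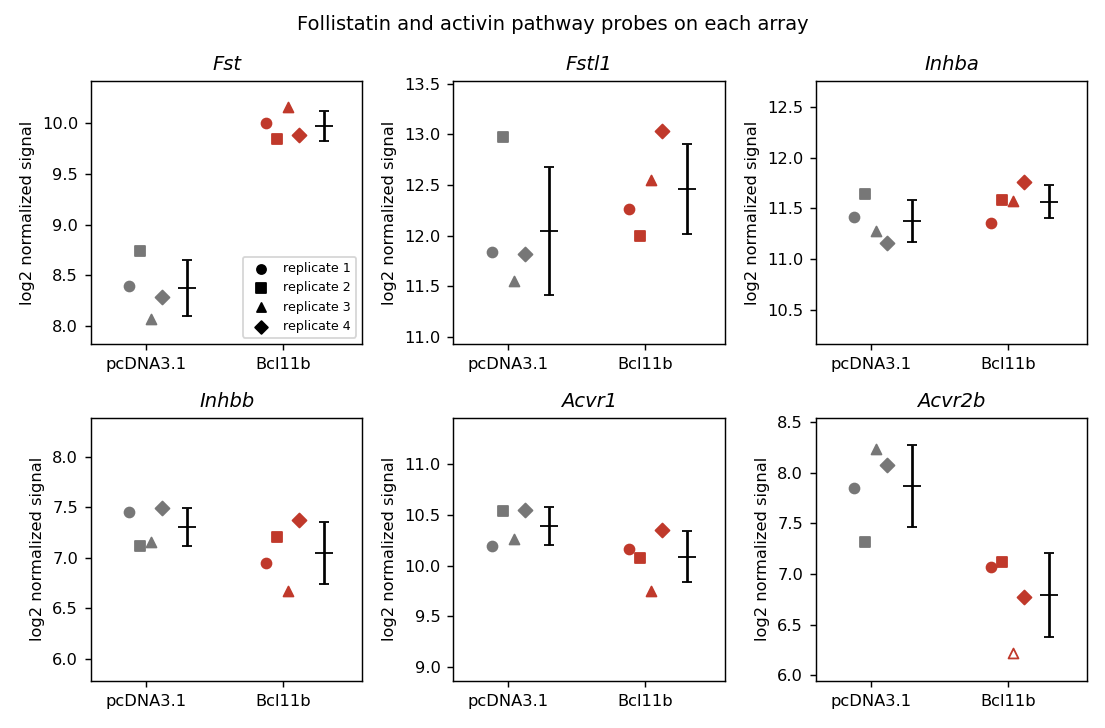
Log2 normalized signal (vertical axis, a separate range in each panel) of the 6 detected member probes on the 4 pcDNA3.1 (grey) and 4 Bcl11b (red) arrays. Symbol shapes give the replicate number, the open symbol an array on which the probe was not detected, and the bars mean ± SD (n = 4). Fst lies at 8.07 to 8.74 against 9.85 to 10.17 and Acvr2b at 7.31 to 8.23 against 6.22 to 7.12, while the groups overlap in the other 4 panels.

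Fstl1 encodes a secreted glycoprotein with a follistatin-like domain whose binding partners differ from those of follistatin. Its probe (ILMN_2734683) read 11.84, 12.97, 11.55 and 11.82 on the pcDNA3.1 arrays and 12.26, 11.99, 12.55 and 13.04 on the Bcl11b arrays. Replicate 2 of pcDNA3.1 was well above the rest of its group, and the groups overlapped. The log2 difference was 0.41 (SE 0.37, 95% interval -0.49 to 1.31), with limma's adjusted p = 0.802. Without pcDNA3.1 replicate 2 it was 0.72, with an unadjusted limma p of 0.0384 and an adjusted p of 0.335. Fstl1 thus did not pass in the full comparison, and the interval includes changes in either direction.

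Inhba encodes the beta A chain, of which activin A is the homodimer. Its probe (ILMN_2868220) gave normalized signals of 2739, 3189, 2484 and 2286 on the pcDNA3.1 arrays and 2623, 3069, 3042 and 3464 on the Bcl11b arrays. These overlapping values gave a log2 difference of 0.19 (SE 0.13, 95% interval -0.11 to 0.50, limma's adjusted p = 0.725). With each array divided by its median the difference was 0.32 (95% interval 0.12 to 0.52), still under the minimum fold change of the study's methods, and with no normalization it was -0.43, so its sign depended on the scaling.

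Inhbb encodes the beta B chain, found in activin B and, with the beta A chain, in activin AB. Its probe (ILMN_2653725) was dim but detected, at 7.31 ± 0.19 on the pcDNA3.1 arrays and 7.05 ± 0.31 on the Bcl11b arrays (log2, SD, n = 4 each). The arrays overlapped, and the log2 difference was -0.26 (SE 0.18, 95% interval -0.68 to 0.17, limma's adjusted p = 0.742). Neither activin chain passed a threshold.

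Among the receptors, Acvr2b, which encodes the type II receptor ActRIIB, was lower on all 4 Bcl11b arrays. Its probe (ILMN_1230145) read 7.85, 7.31, 8.23 and 8.08 on the pcDNA3.1 arrays and 7.07, 7.12, 6.22 and 6.77 on the Bcl11b arrays. The groups did not overlap, but pcDNA3.1 replicate 2 lay close to Bcl11b replicate 2, and the probe was not detected on Bcl11b replicate 3 (detection p-value 0.0213). The log2 difference was -1.08 (2.11-fold lower, SE 0.28, 95% interval -1.75 to -0.40), with an unadjusted limma p of 0.0074 and an adjusted p of 0.235. Acvr2b thus passed the looser threshold (unadjusted p under 0.05 together with the minimum fold change of the study's methods) and not the adjusted 1. Of the detected probes 10.5% passed the looser threshold as lower in Bcl11b cells, and 4.32% passed it as higher. All Bcl11b arrays lay below all pcDNA3.1 arrays for 7.09% of the detected probes and above them for 2.97%.

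The type I receptor gene Acvr1, whose product (ALK2) serves mainly bone morphogenetic proteins, gave values that overlapped. Its probe (ILMN_2660103) was at 10.39 ± 0.19 on the pcDNA3.1 arrays and 10.08 ± 0.25 on the Bcl11b arrays (log2, SD, n = 4 each). The lowest single value was that of Bcl11b replicate 3. The log2 difference was -0.30 (SE 0.15, 95% interval -0.67 to 0.066), with an unadjusted limma p of 0.0921 and an adjusted p of 0.604. Without Bcl11b replicate 4 it was -0.39, with an unadjusted limma p of 0.0435 and an adjusted p of 0.385. No other fit that left out 1 array passed the looser threshold. Without Bcl11b replicate 3 the difference was -0.19, with an unadjusted limma p of 0.186.

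Acvr1b encodes ALK4, the main type I receptor of activin, and its probe (ILMN_2746036) was not detected on any array. Detection p-values ran from 0.174 to 0.841, and no fold change is given. The probe under the older symbol of Acvr2a (ILMN_2617775) was detected on 1 pcDNA3.1 array and on 0 Bcl11b arrays, with limma's adjusted p = 0.779, and no bound on its change could be given.

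Over the 6 detected members, 1 probe passed the adjusted threshold (Fst) and 2 the looser 1 (Fst higher, Acvr2b lower), and 4 passed neither. The median log2 difference of the 6 was -0.03, against -0.02 over the 11755 detected probes. Fst and Acvr2b kept their directions under quantile normalization, array median scaling and no normalization, as did Inhbb and Acvr1, whereas Fstl1 and Inhba turned negative with no normalization. That setting carried the shift of -0.49 in the median of all probes. Relative to it Fst stood at 1.39, Fstl1 at 0.36, Inhba at 0.06, Inhbb at -0.51, Acvr1 at -0.50 and Acvr2b at -1.32. The median includes probes raised to the floor of 1, so it need not match the shift of detected probes. Inhbb and Acvr1 were nearer 0 with quantile normalization (-0.26 and -0.30) and with array medians (-0.25 and -0.24).

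**Figure D2:**
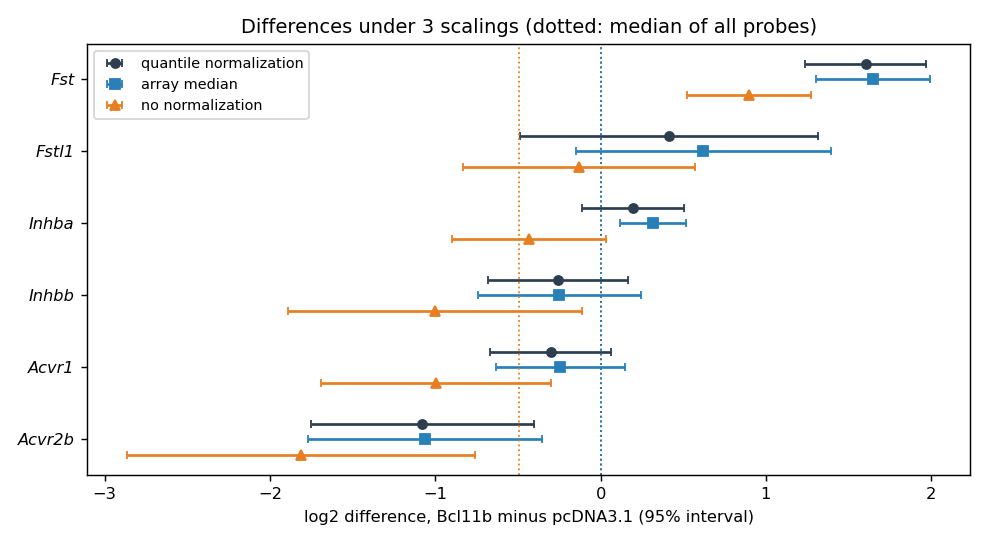
Log2 difference between Bcl11b and pcDNA3.1 arrays (horizontal axis, bars 95% interval, 4 arrays a group) for the 6 detected member probes under 3 scalings. Dotted lines mark the median of all probes, which is 0 for both normalized settings and -0.49 without normalization. The 3 points of Fst (0.90 to 1.65) lie right of 0 and those of Acvr2b (-1.81 to -1.06) left of it, while the points of Fstl1 and Inhba lie on both sides.

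A ratio of 2 probes on the same array is unchanged when all signals of that array are multiplied by 1 factor. Quantile normalization is not such a factor, and can change the ratio. The ratios were taken from the deposited signals and only their change between groups is read, since different probes hybridize with different strength. The log2 ratio of Fst to Inhba, the antagonist to the chain of activin A, went from -2.97 ± 0.25 to -1.63 ± 0.21 (SD, n = 4 each), a 2.52-fold change without overlap between groups. The corresponding changes were 3.73-fold for Fst to Inhbb, 2.04-fold for Fst to Fstl1 and 6.55-fold for Fst to Acvr2b. The size of the last is uncertain, since Acvr2b was dim and was not detected on Bcl11b replicate 3, where the ratio was 15.3. All 4 ratios were higher on each Bcl11b array than on any pcDNA3.1 array, and since they share Fst they are not separate observations. The ratios without Fst that were taken overlapped. Acvr2b to Acvr1 changed from -2.49 ± 0.43 to -3.31 ± 0.23, and Inhba to Inhbb from 4.02 ± 0.36 to 4.59 ± 0.32. Acvr1 to Fstl1 changed from -1.63 ± 0.54 to -2.49 ± 0.46. Inhba to Acvr2b was not among them, but its deposited signals also separate the groups without Fst. The highest pcDNA3.1 ratio was that of replicate 2, with signals of 2645 and 149. The lowest Bcl11b ratio, that of replicate 1 with 2287 and 103, lay above it. Separation was thus not particular to ratios with Fst, and the limit from the dim Acvr2b probe holds here too.

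**Figure D3:**
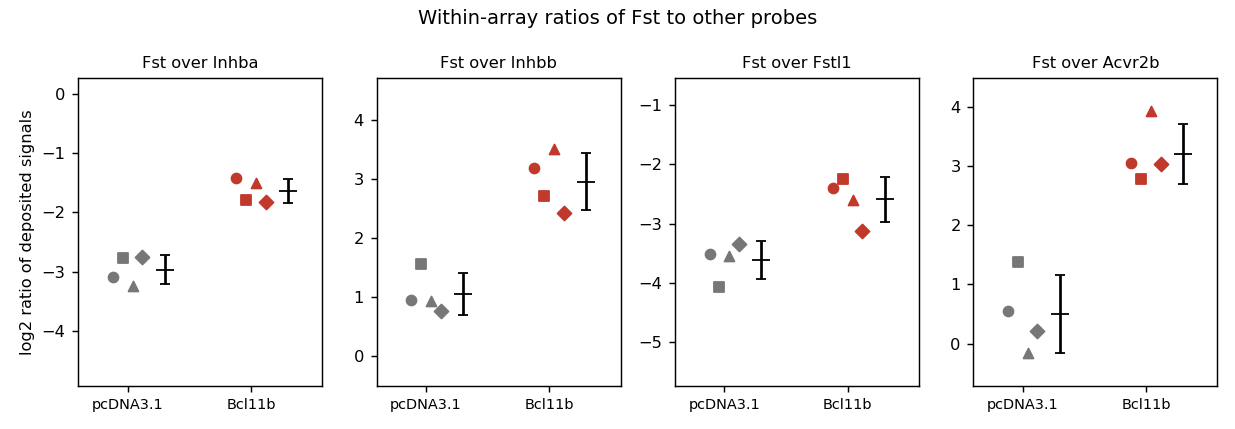
Log2 ratio of the deposited Fst signal to that of Inhba, Inhbb, Fstl1 and Acvr2b on the same array (vertical axis, a separate range in each panel), for 4 pcDNA3.1 (grey) and 4 Bcl11b (red) arrays, with mean ± SD. Circle, square, triangle and diamond are replicates 1 to 4, and in each panel the groups do not overlap, with changes of 2.04-fold (Fstl1) to 6.55-fold (Acvr2b). All points are drawn filled, although Acvr2b was not detected on Bcl11b replicate 3.

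Fst and Acvr2b also varied in opposite directions among arrays of 1 group. Among the pcDNA3.1 arrays replicate 2 had the highest Fst and the lowest Acvr2b, and replicate 3 the lowest Fst and the highest Acvr2b. Among the Bcl11b arrays replicate 3 had the highest Fst and the lowest Acvr2b. Over the 8 arrays the deviations of Fst and Acvr2b from their group means had r = -0.87, the largest in size among pairs of detected members. The opposition was not particular to Fst: Acvr2b also had r = -0.75 with Fstl1 and -0.63 with Inhba, and Fst had 0.71 with Fstl1. Fstl1 and Inhba varied together, with r = 0.78 for the deviations. These correlations describe 8 arrays that were scaled together.

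The probes most like Fst were sought among 9359 other probes detected on all 8 arrays. Atf3, a stress-induced transcription factor, came closest (r = 0.997 over the 8 arrays, a value that includes the difference between the groups). Its log2 normalized signal was 8.25, 8.47, 7.91 and 8.05 on the pcDNA3.1 arrays and 9.67, 9.44, 9.78 and 9.67 on the Bcl11b arrays. Those values follow the order of Fst on the pcDNA3.1 arrays, and differ by 1.47 between groups (limma's adjusted p = 0.0196). Next came Ccng1, the gene of cyclin G1, with r = 0.986 and 0.959 for its probes, then Thap1 (0.960) and Ankrd40 (0.955). By deviations from the group means, which leave the difference between groups aside, the closest were Aspscr1 (r = 0.989), Nsun5 (0.958), Setd8 (0.953), Yap1 (0.953) and Purb (0.941). The highest of so many correlations over 8 arrays are high by selection, and are given as a description.

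**Figure D4:**
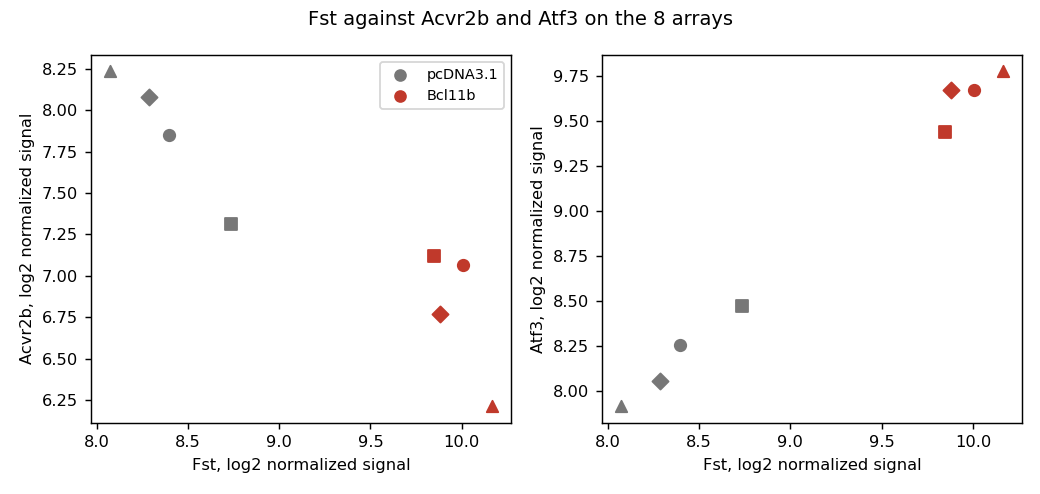
Log2 normalized signal of Fst (horizontal axis) against that of Acvr2b (left) and Atf3 (right) on the 8 arrays, grey for pcDNA3.1 and red for Bcl11b, with circle, square, triangle and diamond for replicates 1 to 4. Each group forms its own cluster, and within the pcDNA3.1 group Acvr2b is lower and Atf3 higher where Fst is higher.

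The wider pathway was read from 98 other genes, of which 91 had a probe and 56 were detected. By the looser threshold 2 of the 56 were higher (3.57%) and 10 lower (17.9%) in Bcl11b cells, beside 4.32% and 10.5% of all detected probes, and 44 passed neither direction. With each array divided by its median the split was 6 higher and 7 lower, so the split depended on the scaling. The median log2 difference of the 56 was -0.09.

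Of the ligand genes 4 were detected and 2 were lower (50%, beside 10.5% of all detected probes). They were Tgfb2 (-0.48, adjusted p = 0.169 by limma) and Tgfb3 (-0.42, adjusted p = 0.219), both of which encode TGF-beta ligands. Inha, Inhbc, Inhbe, Nodal and Mstn, the gene of myostatin, were not detected, so of the main follistatin targets the arrays measured the beta A and beta B chains. Among 7 other detected receptors and co-receptors 1 was lower (14.3%, beside the same 10.5%). It was Tgfbr1, the type I receptor of TGF-beta (-0.40, limma's adjusted p = 0.347), a call that was lost without pcDNA3.1 replicate 4. A further Tgfbr1 probe was detected on all 4 pcDNA3.1 and 0 Bcl11b arrays, at least 1.55-fold lower.

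Of 6 detected Smad genes 1 passed the looser threshold as lower (16.7%, beside 10.5% of all detected probes). It was the inhibitory Smad6 (-0.39, limma's adjusted p = 0.353), whose other probe differed by 0.03. The call of Smad6 was lost when any of pcDNA3.1 replicate 3, pcDNA3.1 replicate 4, Bcl11b replicate 1 or Bcl11b replicate 2 was left out. Smad2, Smad3 and Smad4, the carriers of the activin signal, were at -0.33, -0.22 and -0.04 with overlapping groups (named for their role after their values were seen). None of 14 detected adaptors, co-repressors and ubiquitin ligases passed, with a median of 0.01.

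Of 4 detected genes for proteins with follistatin-type domains 1 was lower (25%, beside 10.5% of all detected probes). It was Agrn, which encodes agrin (-0.42, limma's adjusted p = 0.300). Other extracellular antagonists held the only 3 of the 56 genes that passed the adjusted threshold, which 0.981% of all 25697 probes passed. Dcn, whose product decorin binds TGF-beta, rose from 7.83, 7.15, 7.23 and 6.95 to 8.79, 8.82, 8.82 and 8.60, a log2 difference of 1.47 (2.77-fold, SE 0.19, limma's adjusted p = 0.0492). With no normalization the Dcn difference was 0.75 (limma's adjusted p = 0.161), and its adjusted p was 0.110 to 0.173 in the 5 fits that omitted pcDNA3.1 replicate 3, pcDNA3.1 replicate 4, Bcl11b replicate 1, Bcl11b replicate 2 and Bcl11b replicate 3 in turn. Its other probe was detected on the Bcl11b arrays only, at least 1.26-fold higher. Bmper, which encodes a protein that binds bone morphogenetic proteins, fell by 0.42 on the log2 scale (SE 0.05, limma's adjusted p = 0.0482), with no overlap between groups. Its adjusted p was 0.223 with array medians, 0.125 with no normalization (a difference of -1.12) and 0.144 to 0.165 without pcDNA3.1 replicate 4 or without Bcl11b replicate 1, 2 or 3. Chrd, the gene of the bone morphogenetic protein antagonist chordin, was detected on 3 pcDNA3.1 and 0 Bcl11b arrays and was at least 1.15-fold lower (limma's adjusted p = 0.0681). Its adjusted p was 0.125 with no normalization and 0.121 to 0.211 when any array but pcDNA3.1 replicate 2 was left out. Dcn, Bmper and Chrd thus lost the adjusted threshold in several alternatives, and passed the looser threshold in every alternative in which they were tested. Nbl1 (-0.45) and Ltbp3 (-0.57) were lower by the looser threshold, although a further Ltbp3 probe differed by 0.44 in the other direction without passing. Ltbp3 encodes a latent TGF-beta binding protein, which was listed with the antagonists and is not itself 1.

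Among 15 detected genes known to respond to activin or TGF-beta, 1 was higher, 1 lower and 13 passed neither. Each call was 6.67% of the 15, beside 4.32% higher and 10.5% lower among all detected probes. The higher gene was Cdkn1a, which encodes the cell cycle inhibitor p21 (0.67, limma's adjusted p = 0.174, with 1.43 and 1.00 for its other probes). The lower gene was Tgfbi, which encodes a matrix protein (-0.80, adjusted p = 0.304). The median of the 15 was -0.02, as over all detected probes.

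**Figure D5:**
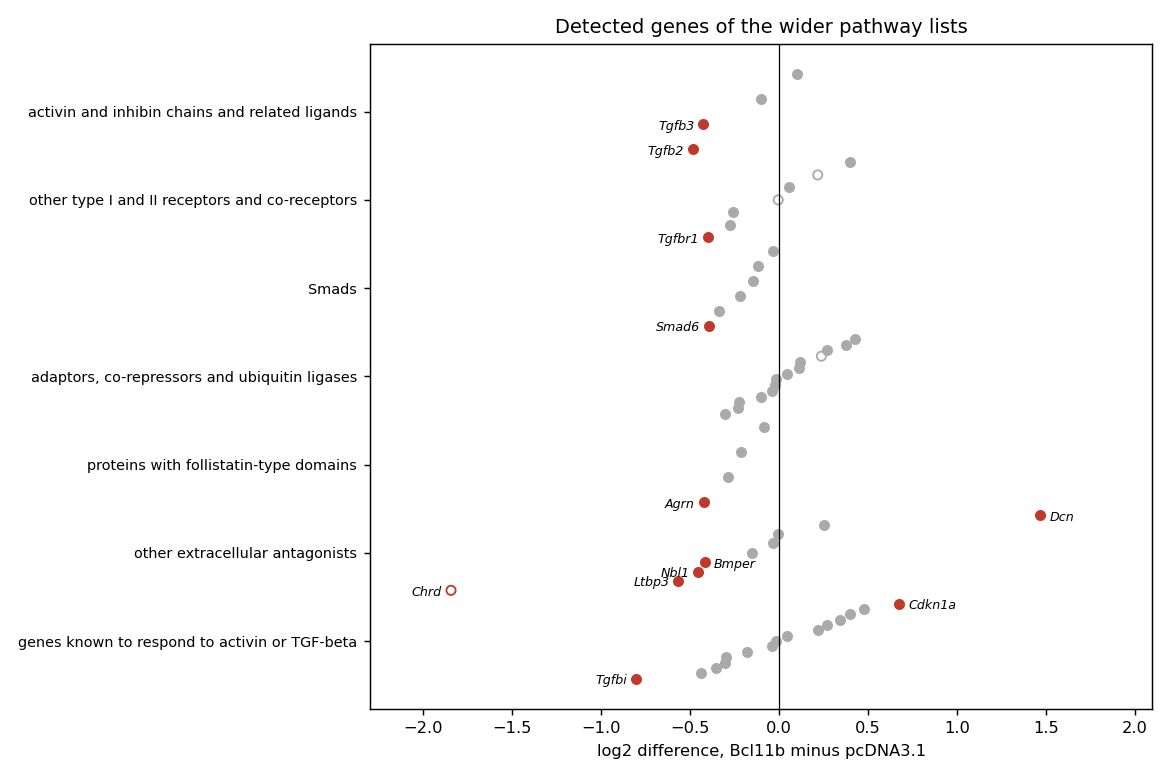
Log2 difference between Bcl11b and pcDNA3.1 arrays (horizontal axis) for the detected genes of 7 pathway lists, 1 point a gene, with genes that passed the looser threshold in red and named. Open symbols are genes detected on no array of 1 of the groups, for which the fitted position is no measure of size, and a gene on several lists is drawn in each. Dcn (1.47) and Cdkn1a (0.67) are the named genes right of 0, and 10 named genes lie left of it.

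Markers of other cell types were read the same way. Of 41 marker genes 36 had a probe and 13 were detected. Of these 1 was higher, Cd68 of microglia, and 1 lower, Pdgfrb of mesenchymal cells (-0.49, limma's adjusted p = 0.309). Each call was 7.69% of the 13, beside 4.32% higher and 10.5% lower among all detected probes. Cd68 was detected on 2 Bcl11b arrays only (at least 1.13-fold higher, limma's adjusted p = 0.187), and Aif1, Csf1r and Ptprc were not detected. The summed signal of the 4 microglial genes was 31.1 to 50.5 on the pcDNA3.1 arrays and 65.5 to 124 on the Bcl11b arrays. None of the 4 was detected on a pcDNA3.1 array, so these sums are mostly signals below detection. Their difference is no measure of size and does not show microglia in the culture. The part of the microglial genes in the Fst and Acvr2b differences was not tested. Mesenchymal markers (4 of 7 detected) summed to 5062 to 6159 and 4699 to 8232, and neural progenitor markers to 23831 to 27704 and 20044 to 27703. Neuron markers (2 of 5 detected) summed to 2034 to 2380 and 1917 to 2311 and astrocyte markers (1 of 5 detected) to 80.8 to 215 and 58.9 to 161, and of the 3 oligodendrocyte genes matched 0 were detected. The part of these lists was not tested either. The 5 housekeeping genes, all detected, passed in neither direction.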

How the data were processed

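RNA from 4 Bcl11b and 4 pcDNA3.1 samples of STHdh cells was hybridized to Illumina MouseRef-8 v2 arrays, 1 array a sample, and grouped by the sample titles. The authors deposited 1 intensity per probe, background-subtracted in GenomeStudio and not normalized between arrays, so that 30.6% to 31.6% of the values of an array were at or below 0. The deposited detection p-value of each probe was used only to call it detected, at under 0.01. After quantile normalization a floor of 1 was applied, and log2 values were fitted with limma 3.58.1 (lmFit and eBayes, no covariate) in R 4.3.3 over all 25697 probes. P-values were adjusted by Benjamini-Hochberg. Thresholds followed the study's methods: adjusted p under 0.10, or unadjusted p under 0.05 with 1.25-fold. Setting dim signals to 1 governs their fold changes, so no fold is given for a probe undetected on every array, and a lower bound where 1 group had no detected array. That bound takes the bright group's mean against a mean over the other group's arrays, each at its lowest detected signal or at the dim probe's own signal where that is higher.

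A gene outside the 9 members was represented by its probe detected on most arrays. Named genes were the members, pathway genes past the looser threshold, the 5 probes most like Fst by each measure, Bcl11b and the markers. Members and lists were chosen with earlier results of these data known. The fit was tested on simulated data, in which 200 of 25697 probes were changed by 1 on the log2 scale. Of the 200, 75 (37.5%) passed the adjusted threshold, with 11 unchanged ones. The changed probes were all detected on all 8 arrays and the noise was independent between probes. Recovery of dim probes, or under deviations shared between probes, was therefore not tested. No 2 arrays were identical. The number of arrays limits the precision, and p-values measure the spread between these samples, which the study describes as separate sets of transfected cells and the labels only as numbered replicates. Alternatives were no normalization, array medians, neqc, an offset of 16, detection filters, a replicate block, limma-trend, arrayWeights, the brightest probe for each gene and leaving out each array. Promoter and primer sequences came from RefSeq and from the study's supplement. The ChIP-seq data were not used here.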

Additional observations from a re-analysis of the deposited data

Results flagged for a closer look

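Of 36 groups of 4 arrays examined, 3 held a value far from the others, and chance flags about 1 in 20 groups. Bcl11b replicate 4 had a Dcn log2 signal of 8.60, below the 8.79 to 8.82 of the other Bcl11b arrays and still above every pcDNA3.1 array. On pcDNA3.1 replicate 4 the Ltbp3 log2 signal was 12.35, against 11.93 to 11.99 on the other pcDNA3.1 arrays. The Tgfb3 log2 signal was 7.91 on pcDNA3.1 replicate 1 and 7.48 to 7.50 on the others, and without that array the difference of Tgfb3 was -0.31, under the minimum fold change. None of these values belonged to a member.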

How the results depend on the processing

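The Fst difference of 1.60 was past the adjusted threshold in 15 of 17 alternatives, among them every fit that left out 1 array (1.50 to 1.74). It was 0.90 with no normalization (limma's adjusted p = 0.125) and 1.60 with a replicate block (adjusted p = 0.205), the range of adjusted p over all alternatives being 0.00466 to 0.205. In these 2 settings the members past the adjusted threshold went from 1 to 0. Members past the looser threshold went from 2 to 4 with no normalization, as Inhbb and Acvr1 joined, and to 1 with the replicate block, where Acvr2b had an unadjusted p of 0.0507. Leaving out 1 array gave 2 to 3. Acvr2b otherwise kept its call, from -1.81 to -0.89. With no normalization Fstl1 was -0.13 and Inhba -0.43, both reversed. Other pathway genes past the looser threshold went from 12 to 30 with no normalization, and were 10 to 15 when 1 array was left out.

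Over all probes 252 passed the adjusted threshold, but 57 with no normalization, 146 with array medians, 413 with neqc, 45 with the replicate block, 45 with limma-trend, 642 with arrayWeights and 87 to 637 when 1 array was left out. The highest of these was without pcDNA3.1 replicate 2. It was 249 without Bcl11b replicate 4 and 87 to 113 without any of the other arrays. The split of higher to lower was 91 to 161, and 100 to 46 with array medians. The cause was not tested. Same-numbered arrays deviated from their group means with r of 0.68, -0.63, 0.18 and 0.70 over 9360 probes and 4 of 8 arrays correlated best with their own number, so the numbers were not taken to pair the samples. The adjusted threshold was also lost by Dcn, Bmper and Chrd with the replicate block (adjusted p = 0.188, 0.166 and 0.262) and with limma-trend (0.108, 0.253 and 0.162), and by Bmper with the detection filters (0.150 and 0.166). With array medians the looser calls of Agrn, Nbl1 and Tgfbr1 were lost, and that of Cdkn1a with no normalization (0.06). Dim signals limit Inhbb, Acvr2b and Chrd.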
